A study of Homo sapiens with 10 samples.

Results

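The genes that copy the genome were examined in K562 cells exposed to inhibitors of the CREBBP/EP300 bromodomains. The set was a list of 42 symbols covering origin licensing, the replicative helicase, the polymerases, the sliding clamp, fragment maturation and nucleotide supply, taken by symbol from an expression table of 23284 genes, and all 42 were present and passed the expression filter. K562 is an established human chronic myeloid leukemia line with erythroid features. For 48 h cells were given the DMSO vehicle or one of the inhibitors, CBP30 or I-CBP112, each used at 2 µM and at 5 µM, and poly(A)+ RNA was sequenced from 2 biological replicates per condition, 10 samples in all. CBP30 and I-CBP112 are small molecules that occupy the acetyl-lysine pocket of the bromodomains of the histone acetyltransferases CREBBP and EP300. No group carried a genetic alteration made for the study, and all groups shared one cell line, one medium and one treatment time.

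DNA replication begins when the origin recognition complex (ORC), CDC6 and CDT1 load the ring-shaped MCM2-7 helicase onto DNA in G1. At the G1/S transition CDC45 and the GINS complex join the ring and activate it, polymerase alpha-primase starts each strand, and polymerases epsilon and delta extend the leading and lagging strands on the PCNA clamp that RFC loads. RPA coats single-stranded DNA, FEN1 and LIG1 finish Okazaki fragments, and ribonucleotide reductase, thymidylate synthase and thymidine kinase provide deoxynucleotides. Many of these genes are transcribed periodically, under E2F factors and pocket proteins of the RB family, and histone acetyltransferases serve as E2F coactivators.

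Expression was given as normalized FPKM (fragments per kilobase of transcript, scaled for library size by the depositors). This measure corrects for length and so allows levels of different genes to be compared within a sample. Fold changes are on the log2(FPKM + 1) scale, with standard errors (SE) and Benjamini-Hochberg adjusted p-values from one limma fit over 12788 genes, and a gene was called at an adjusted p under 0.05. With 2 replicates per group the p-values measure the spread between these samples. In bulk RNA a lower level can reflect fewer cells in S phase or less RNA per cell, and these cannot be told apart. Library depth is unknown, since only FPKM was deposited, and the FPKM sums ran from 547504 to 689095.

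The erythroid identity of the line was visible in DMSO, where 10 erythroid markers summed to 1953 and 1904 FPKM. This sum was 626.2 and 653.1 with 5 µM CBP30, and 9 of the 10 markers were called lower there. Of 8 markers of other cell types 4 passed the filter, and their sum fell from 62.8 and 61.7 FPKM in DMSO to 38.4 and 39.7 with 5 µM CBP30, most of it EPCAM, at 59.7 and 58.6 FPKM in DMSO and 31.8 and 33.0 with 5 µM CBP30. CD14 was listed at 0 in both 5 µM CBP30 samples, and CD3E reached 3.15 and 3.31 FPKM there against 1.04 and 1.16 in DMSO. What part these shifts had in the changes below was not tested. One library stood apart: in replicate 1 of 2 µM CBP30, the deviation of a gene from its mean over all samples followed transcript length with a Spearman correlation of -0.663 across 11738 genes, whereas the coefficient lay between -0.112 and 0.347 in the other 9 samples. Calls resting on 2 µM CBP30 are therefore given with and without that library. Because all samples were fitted together, that library also entered the estimate of spread behind the SE of every other comparison.

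Matches to sequence motifs, which played no part in the choice of the members, were counted in their promoters. RefSeq windows of 250 bases before to 50 bases after the start (GRCh38.p14) were found for 36 of the 42 genes. The E2F site, searched on both strands as TTTCCCGC, TTTCGCGC, TTTGCCGC or TTTGGCGC, occurred in 18 of these 36 genes (50.0%), in 6.82% of the 8650 tested genes with a window and in 3.99% of all 27305 genes. The CCAAT box (CCAAT) occurred in 23 of 36 (63.9%; 43.8% of tested genes), the GC box (GGGCGG) in 27 of 36 (75.0%; 77.5% of tested genes) and the E-box CACGTG, the letters MYC binds, in 4 of 36 (11.1%; 12.9% of tested genes). These are matches of letters, not sites shown to be bound. The share with an E2F match was 5 of 11 among members called lower with 5 µM CBP30, 3 of 8 among those called higher and 10 of 17 among the rest, and matches thus occurred in genes of both directions.

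Stretches of 6 promoters are shown to set members that moved in opposite directions side by side: CDT1, ORC1 and POLD2, among the largest falls with 5 µM CBP30, RRM1, one of the largest rises, and MCM2 and MCM3, subunits of one ring that moved apart. The choice of RRM1, MCM2 and MCM3 was made after their values were seen. Each is the longest part of the 250 bases before the RefSeq start that no annotated exon covers, read 5′ to 3′ on the gene's strand and placed on GRCh37 by an exact and single match, with capitals for matches to the 4 motifs. The coordinates are chr16:88869947-88870196 (plus strand), chr1:52870096-52870273 (minus), chr7:44163268-44163397 (minus), chr11:4115665-4115914 (plus), chr3:127317111-127317252 (plus) and chr6:52149680-52149790 (minus).
CDT1: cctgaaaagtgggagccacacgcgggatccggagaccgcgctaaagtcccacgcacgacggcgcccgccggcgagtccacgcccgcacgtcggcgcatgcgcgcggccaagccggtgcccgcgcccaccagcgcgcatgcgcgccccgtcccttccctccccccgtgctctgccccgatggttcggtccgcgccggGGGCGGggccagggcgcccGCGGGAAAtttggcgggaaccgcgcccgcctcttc
ORC1: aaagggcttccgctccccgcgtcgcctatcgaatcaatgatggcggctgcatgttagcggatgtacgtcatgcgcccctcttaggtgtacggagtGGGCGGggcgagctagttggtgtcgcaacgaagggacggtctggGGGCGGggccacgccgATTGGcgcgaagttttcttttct
POLD2: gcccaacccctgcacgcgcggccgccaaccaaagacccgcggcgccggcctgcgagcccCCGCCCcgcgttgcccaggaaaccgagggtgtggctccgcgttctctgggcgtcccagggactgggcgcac
RRM1: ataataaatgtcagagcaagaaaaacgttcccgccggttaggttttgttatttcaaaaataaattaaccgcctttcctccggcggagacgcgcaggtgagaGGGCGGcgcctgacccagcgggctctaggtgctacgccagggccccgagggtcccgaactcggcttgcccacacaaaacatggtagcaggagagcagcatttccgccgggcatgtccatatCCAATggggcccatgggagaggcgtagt
MCM2: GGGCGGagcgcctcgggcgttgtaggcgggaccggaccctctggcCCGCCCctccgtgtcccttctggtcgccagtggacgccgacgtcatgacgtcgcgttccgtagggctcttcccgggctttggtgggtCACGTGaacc
MCM3: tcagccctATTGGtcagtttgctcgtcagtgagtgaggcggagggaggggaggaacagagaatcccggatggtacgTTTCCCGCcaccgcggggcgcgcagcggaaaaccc
The E2F match of CDT1 begins 35 bases before the start, behind a GC box at 54 bases, and that of MCM3 begins 174 bases before it, with a CCAAT box at 242. MCM2 shows an E-box 11 bases before its start and no E2F match inside the printed stretch, though its whole window holds 2. ORC1 has GC boxes at 83 and 39 bases and a CCAAT box at 23, RRM1 a GC box at 149 and a CCAAT box at 28, and the printed part of POLD2 a single GC box at 191. No E2F match was found in the windows of ORC1, POLD2 and RRM1, which says only that those letters are not there.

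With 5 µM CBP30, 14 of the 42 replication genes were downregulated and 9 were upregulated against DMSO, in a comparison where 25.4% of all tested genes were called lower and 21.2% higher. The 14 lower genes were ORC1, ORC2, ORC3, CDT1, MCM2, MCM4, MCM5, MCM7, CDC45, PRIM1, POLE2, POLD2, RFC4 and RPA2, and the 9 higher genes were MCM3, GINS1, POLD3, RFC1, RFC5, RPA1, RRM1, RRM2 and TYMS. The members' median log2 fold change was -0.003, beside -0.010 over all tested genes, and single members ran from -0.79 (CDT1) to 0.43 (RRM2). The set therefore did not move one way: 5 of its 9 role groups held both falls and rises. A fit of the 5 µM CBP30 and DMSO samples alone called 16 members lower and 13 higher (32.6% and 28.4% of all tested genes). With 2 µM CBP30, 3 members were called lower (background 16.3%) and 9 higher (background 15.9%), with a median of 0.07. With 5 µM I-CBP112 none was called lower (background 3.28%) and RRM2 alone was higher (background 3.84%). In limma 6 members had an unadjusted p under 0.05 there, as did 2819 of all 12788 tested genes. With 2 µM I-CBP112 no member was called in either direction (backgrounds 0.735% and 0.868%). There 2 members had an unadjusted p under 0.05 in limma, as did 1761 of all 12788 tested genes. The RRM2 call with I-CBP112 was lost when any one of the DMSO or 5 µM I-CBP112 samples was left out. The 4 comparisons share the same DMSO samples.

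**Figure D1:**
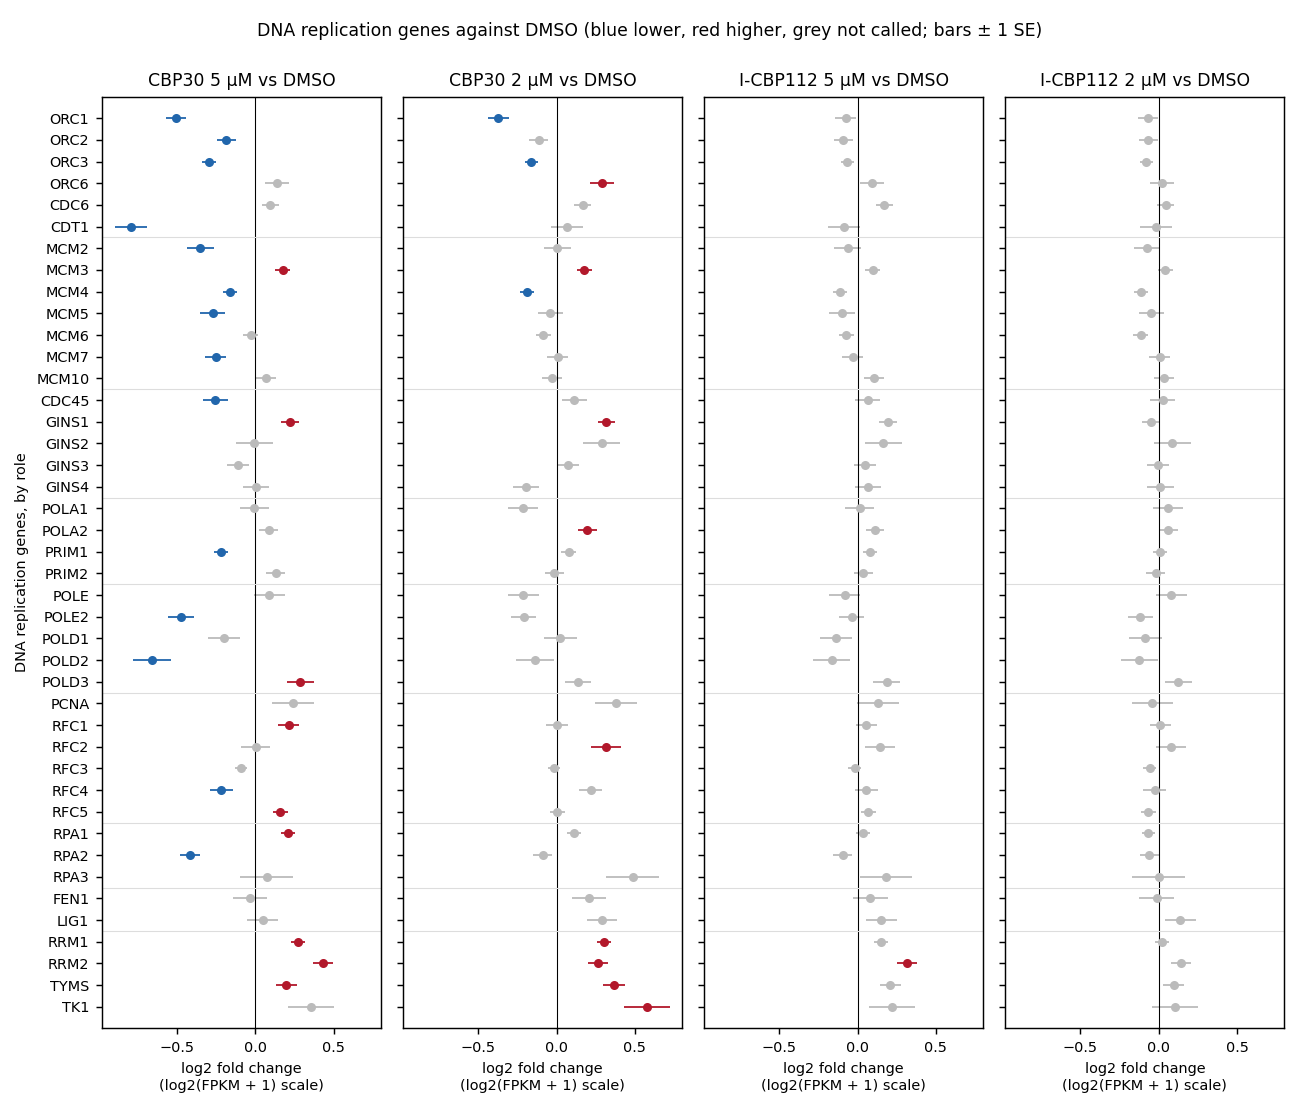
Log2 fold change of each of the 42 genes against DMSO (x axis, log2(FPKM + 1) scale) in the 4 treatments (panels), ordered by role (y axis), with points for the estimate, bars for ± 1 SE and colour for the call (blue lower, red higher, grey not called). At 5 µM CBP30, 14 genes are blue and 9 red, from -0.79 for CDT1 to 0.43 for RRM2, while in the I-CBP112 panels RRM2 at 5 µM is the one coloured point.

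Origin licensing held the steepest fall. CDT1, the loader that brings the helicase to ORC, was at 140.3 and 133 FPKM in DMSO, 159.7 and 128 under CBP30 at 2 µM, 78.4 and 78.3 under CBP30 at 5 µM, 131 and 139.6 under I-CBP112 at 2 µM and 135 and 123 under I-CBP112 at 5 µM. Both 5 µM CBP30 values lay far below the other 8, which overlapped one another. At 5 µM CBP30, CDT1 stood at 57.3% of its DMSO mean, a log2 fold change of -0.79 ± 0.10 (SE; adjusted p = 0.00084), against 0.07 ± 0.10 at 2 µM (adjusted p = 0.65). ORC1, the largest ORC subunit, with ATPase activity, was at 40.0 and 41.5 FPKM in DMSO, 29.3 and 33.4 under CBP30 at 2 µM, 28.8 and 27.9 under CBP30 at 5 µM, 39.0 and 38.7 under I-CBP112 at 2 µM and 39.1 and 38.1 under I-CBP112 at 5 µM. It was lower in all 4 CBP30 samples than in any other, with log2 fold changes of -0.51 ± 0.06 at 5 µM (adjusted p = 0.000762) and -0.37 ± 0.06 at 2 µM (adjusted p = 0.0061). ORC3 fell at both concentrations (-0.30 and -0.16), and ORC2 at 5 µM (-0.19, adjusted p = 0.042). ORC6, the subunit least like the others, and CDC6, the loading ATPase, had log2 fold changes of 0.14 and 0.10 at 5 µM. Neither was called there. Both 5 µM CBP30 samples of each lay above both DMSO samples, as they did for 39.5% of all tested genes. ORC6 was called higher at 5 µM once the length trend was removed (0.27, adjusted p = 0.000942) and at 2 µM in the values as deposited (0.29, adjusted p = 0.0282; 0.18 without replicate 1 of 2 µM CBP30, adjusted p = 0.0356). Equal sums called both ORC6 and CDC6 higher at 5 µM.

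The MCM2-7 ring, whose subunits work as one hexamer, was not changed evenly. MCM2 was at 78.3 and 75.5 FPKM in DMSO, 84.9 and 70.2 under CBP30 at 2 µM, 61.1 and 59.0 under CBP30 at 5 µM, 72.5 and 73.5 under I-CBP112 at 2 µM and 75.1 and 72.0 under I-CBP112 at 5 µM. The 5 µM CBP30 samples lay below all others, and the pair of 2 µM samples straddled DMSO. Its log2 fold change was -0.35 ± 0.09 at 5 µM (adjusted p = 0.0127) and 0.01 ± 0.09 at 2 µM. MCM5 was at 80.0 and 79.1 FPKM in DMSO, 83.9 and 71.3 under CBP30 at 2 µM, 66.9 and 64.6 under CBP30 at 5 µM, 74.3 and 79.8 under I-CBP112 at 2 µM and 76.0 and 72.4 under I-CBP112 at 5 µM, again with the 5 µM CBP30 samples lowest (-0.27 ± 0.08, adjusted p = 0.0284). MCM7, the most abundant member in DMSO at 309.5 and 300.4 FPKM, fell by 0.25 on the log2 scale at 5 µM, and MCM4 was lower at both CBP30 concentrations (-0.16 at 5 µM, -0.19 at 2 µM). MCM3 went the other way: it was at 176 and 179 FPKM in DMSO, 207 and 196 under CBP30 at 2 µM, 200.4 and 201 under CBP30 at 5 µM, 181 and 185 under I-CBP112 at 2 µM and 189 and 191 under I-CBP112 at 5 µM, with every CBP30 sample above every other sample (0.17 ± 0.05 at 5 µM, adjusted p = 0.0213; 0.18 ± 0.05 at 2 µM, adjusted p = 0.0282). MCM6 and MCM10, a fork factor outside the ring, had log2 fold changes of -0.03 and 0.07 at 5 µM and were not called. MCM2 shares 23.6% of its exon bases with a lncRNA on the opposite strand, and how strand was handled in counting is not given in the sources used here.

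Of the helicase activators, CDC45 and GINS1 moved apart. CDC45, which bridges MCM2-7 and GINS, was at 219.5 and 215 FPKM in DMSO, 256 and 216 under CBP30 at 2 µM, 184 and 180.0 under CBP30 at 5 µM, 217 and 226 under I-CBP112 at 2 µM and 228 and 227 under I-CBP112 at 5 µM. Its 5 µM CBP30 values were the lowest of the 10 samples, with a log2 fold change of -0.26 ± 0.08 (adjusted p = 0.0348), and at 2 µM it was 0.11 ± 0.08 and not called. GINS1, a GINS subunit, was at 14.4 and 15.4 FPKM in DMSO, 19.2 and 18.5 under CBP30 at 2 µM, 16.9 and 18.1 under CBP30 at 5 µM, 14.4 and 14.3 under I-CBP112 at 2 µM and 17.1 and 17.3 under I-CBP112 at 5 µM. The 4 CBP30 samples and the pair at 5 µM I-CBP112 all exceeded DMSO, and CBP30 raised it by 0.22 ± 0.05 at 5 µM (adjusted p = 0.0141) and 0.32 ± 0.05 at 2 µM (adjusted p = 0.00572). With 5 µM I-CBP112 the value was 0.19 ± 0.05 (adjusted p = 0.0835). GINS2, GINS3 and GINS4 ranged from -0.11 to 0.00 at 5 µM CBP30, none called.

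In polymerase alpha-primase, which lays RNA-DNA primers, only the small catalytic primase subunit was called at 5 µM CBP30. PRIM1 was at 108 and 113 FPKM in DMSO, 117 and 117 under CBP30 at 2 µM, 95.5 and 94.0 under CBP30 at 5 µM, 109 and 113 under I-CBP112 at 2 µM and 116 and 118 under I-CBP112 at 5 µM. Both 5 µM CBP30 samples lay below the other 8 (-0.22 ± 0.05, adjusted p = 0.00677). With the length trend removed PRIM1 had -0.08 ± 0.07 and was not called (adjusted p = 0.394). PRIM2, the large primase subunit, was at 31.4 and 32.2 FPKM in DMSO, 29.7 and 33.4 under CBP30 at 2 µM, 35.0 and 34.8 under CBP30 at 5 µM, 30.5 and 32.3 under I-CBP112 at 2 µM and 32.9 and 32.4 under I-CBP112 at 5 µM, and its estimate of 0.13 ± 0.06 was not called (adjusted p = 0.132). PRIM2 shares 12.9% of its exon bases with the copy PRIM2BP on the same strand, so its level is uncertain. POLA1, the catalytic subunit, had -0.01 at 5 µM, and POLA2, the accessory subunit, 0.08. POLA2 was called higher at 2 µM CBP30 (0.20 ± 0.06, adjusted p = 0.0414).

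Among the extending polymerases the falls were in accessory subunits and the catalytic subunits were not called. POLD2, the second subunit of polymerase delta, was at 135 and 129 FPKM in DMSO, 137 and 104 under CBP30 at 2 µM, 86.6 and 79.6 under CBP30 at 5 µM, 117 and 125 under I-CBP112 at 2 µM and 117 and 118 under I-CBP112 at 5 µM. The 5 µM CBP30 samples lay below all others, at 63.0% of the DMSO mean, with a log2 fold change of -0.66 ± 0.12 (adjusted p = 0.00357). POLE2, the second subunit of polymerase epsilon, was at 16.2 and 15.6 FPKM in DMSO, 13.7 and 13.5 under CBP30 at 2 µM, 10.4 and 12.0 under CBP30 at 5 µM, 14.2 and 15.0 under I-CBP112 at 2 µM and 14.6 and 16.4 under I-CBP112 at 5 µM. All 4 CBP30 samples were below both DMSO samples, and the estimate was -0.48 ± 0.08 at 5 µM (adjusted p = 0.00266) and -0.21 ± 0.08 at 2 µM (adjusted p = 0.0852). POLE and POLD1, the catalytic subunits, had 0.09 (95% interval -0.15 to 0.32) and -0.20 (95% interval -0.45 to 0.04) at 5 µM. POLD3, the delta subunit that also serves polymerase zeta, was called higher at 5 µM CBP30 (0.29 ± 0.09, adjusted p = 0.0291), at 11.9 and 13.0 FPKM against 10.2 and 9.80 in DMSO.

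PCNA, the sliding clamp, was at 142 and 138 FPKM in DMSO, 215 and 155 under CBP30 at 2 µM, 164 and 167 under CBP30 at 5 µM, 138 and 134 under I-CBP112 at 2 µM and 152 and 154 under I-CBP112 at 5 µM. All 4 CBP30 samples exceeded DMSO, but the replicates at 2 µM differed by more than their mean did from DMSO, and neither 0.24 ± 0.13 at 5 µM (adjusted p = 0.177) nor 0.38 ± 0.13 at 2 µM (adjusted p = 0.0644) was called. PCNA was called higher at 2 µM without replicate 1, at the smaller value of 0.15 ± 0.03 (adjusted p = 0.0207). With the length trend removed it was called at both concentrations (0.39, adjusted p = 0.000411 at 5 µM and 0.23, adjusted p = 0.0118 at 2 µM). A set of 3 pseudogenes is named after PCNA, which makes its level less certain. Of the clamp loader subunits, RFC4 was at 54.6 and 57.1 FPKM in DMSO, 69.7 and 60.9 under CBP30 at 2 µM, 49.2 and 46.6 under CBP30 at 5 µM, 55.0 and 54.7 under I-CBP112 at 2 µM and 60.0 and 56.3 under I-CBP112 at 5 µM, lowest at 5 µM CBP30 (-0.22 ± 0.07, adjusted p = 0.0438). This call, the only fall in its role group, was lost in 7 of 11 alternative ways of processing. With the length trend removed RFC4 had -0.07 ± 0.05 (adjusted p = 0.277). RFC1, the large loader subunit, and RFC5 were called higher at 5 µM (0.21 and 0.16), RFC2 was called higher at 2 µM (0.31, adjusted p = 0.0426; 0.16 without replicate 1, adjusted p = 0.0458), and RFC3 had -0.09 at 5 µM and was not called.

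The single-strand binding complex RPA, a trimer, also divided. RPA2, the middle subunit, was at 123 and 127 FPKM in DMSO, 124 and 111 under CBP30 at 2 µM, 92.2 and 94.5 under CBP30 at 5 µM, 118 and 122 under I-CBP112 at 2 µM and 118 and 116 under I-CBP112 at 5 µM. The 5 µM CBP30 samples were lowest, with -0.42 ± 0.06 (adjusted p = 0.0014). RPA1, the large DNA-binding subunit, was at 32.9 and 34.1 FPKM in DMSO, 36.6 and 35.9 under CBP30 at 2 µM, 38.2 and 39.5 under CBP30 at 5 µM, 31.8 and 32.1 under I-CBP112 at 2 µM and 34.1 and 34.6 under I-CBP112 at 5 µM, and the 4 CBP30 samples were the highest of the 10 (0.21 ± 0.04 at 5 µM, adjusted p = 0.00702). RPA3, the small subunit, had 0.07 at 5 µM and 0.49 at 2 µM, neither called, and its 2 µM replicates were 49.3 and 32.1 FPKM. Without replicate 1 it had 0.19 at 2 µM and was called (adjusted p = 0.0476). Both RPA2 and RPA3 have pseudogenes named after them, 3 and 2 respectively.

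The genes of Okazaki fragment maturation gave no call in any comparison with DMSO. At 2 µM CBP30, 1 of them had an unadjusted p under 0.05 in limma, as did 5693 of all 12788 tested genes. FEN1, the flap endonuclease, was at 87.3 and 83.8 FPKM in DMSO, 113 and 86.7 under CBP30 at 2 µM, 81.5 and 85.4 under CBP30 at 5 µM, 84.8 and 84.7 under I-CBP112 at 2 µM and 91.4 and 89.8 under I-CBP112 at 5 µM. LIG1, the ligase that seals the nicks, was at 35.6 and 33.9 FPKM in DMSO, 47.9 and 38.0 under CBP30 at 2 µM, 36.3 and 35.4 under CBP30 at 5 µM, 37.7 and 39.1 under I-CBP112 at 2 µM and 38.7 and 38.7 under I-CBP112 at 5 µM. At 5 µM CBP30 the log2 fold changes were -0.04 for FEN1 (95% interval -0.30 to 0.22) and 0.05 for LIG1 (95% interval -0.18 to 0.27), and at 2 µM CBP30 LIG1 had 0.29 ± 0.10 (adjusted p = 0.0585), with its higher value in replicate 1.

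Nucleotide supply was the group in which calls with DMSO as the control went only upwards. RRM2, the regulatory and radical-bearing subunit of ribonucleotide reductase, was at 74.1 and 79.0 FPKM in DMSO, 87.7 and 96.9 under CBP30 at 2 µM, 101 and 106 under CBP30 at 5 µM, 86.1 and 82.9 under I-CBP112 at 2 µM and 96.6 and 94.6 under I-CBP112 at 5 µM. Every treated sample exceeded both DMSO samples, and the log2 fold change was 0.43 ± 0.06 at 5 µM CBP30 (adjusted p = 0.00154), 0.27 ± 0.06 at 2 µM CBP30 (adjusted p = 0.0205), 0.32 ± 0.06 at 5 µM I-CBP112 (adjusted p = 0.032) and 0.14 ± 0.06 at 2 µM I-CBP112 (adjusted p = 0.402). RRM1, the large subunit, was at 93.5 and 98.2 FPKM in DMSO, 117 and 119.6 under CBP30 at 2 µM, 116 and 115 under CBP30 at 5 µM, 97.4 and 97.2 under I-CBP112 at 2 µM and 107 and 106 under I-CBP112 at 5 µM, called higher at both CBP30 concentrations (0.27 at 5 µM, 0.30 at 2 µM). TK1, the thymidine salvage kinase, was at 72.8 and 71.3 FPKM in DMSO, 129 and 90.2 under CBP30 at 2 µM, 92.1 and 92.7 under CBP30 at 5 µM, 74.3 and 81.1 under I-CBP112 at 2 µM and 86.6 and 81.9 under I-CBP112 at 5 µM. Its 2 µM replicates spread widely, so that 0.58 ± 0.15 was called at 2 µM (adjusted p = 0.0241) and 0.35 ± 0.15 at 5 µM was not (adjusted p = 0.0856). Both 5 µM samples also lay above both DMSO samples, as they did for 39.5% of all tested genes. TYMS, thymidylate synthase, was at 77.3 and 77.4 FPKM in DMSO, 108 and 93.1 under CBP30 at 2 µM, 88.7 and 89.1 under CBP30 at 5 µM, 81.3 and 84.3 under I-CBP112 at 2 µM and 90.4 and 88.9 under I-CBP112 at 5 µM, with 0.20 ± 0.07 at 5 µM (adjusted p = 0.0499) and 0.37 ± 0.07 at 2 µM CBP30 (adjusted p = 0.00795). TYMS shares 39.9% of its exon bases with ENOSF1 on the opposite strand, and RRM2 and TYMS have 3 and 2 pseudogenes named after them.

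**Figure D2:**
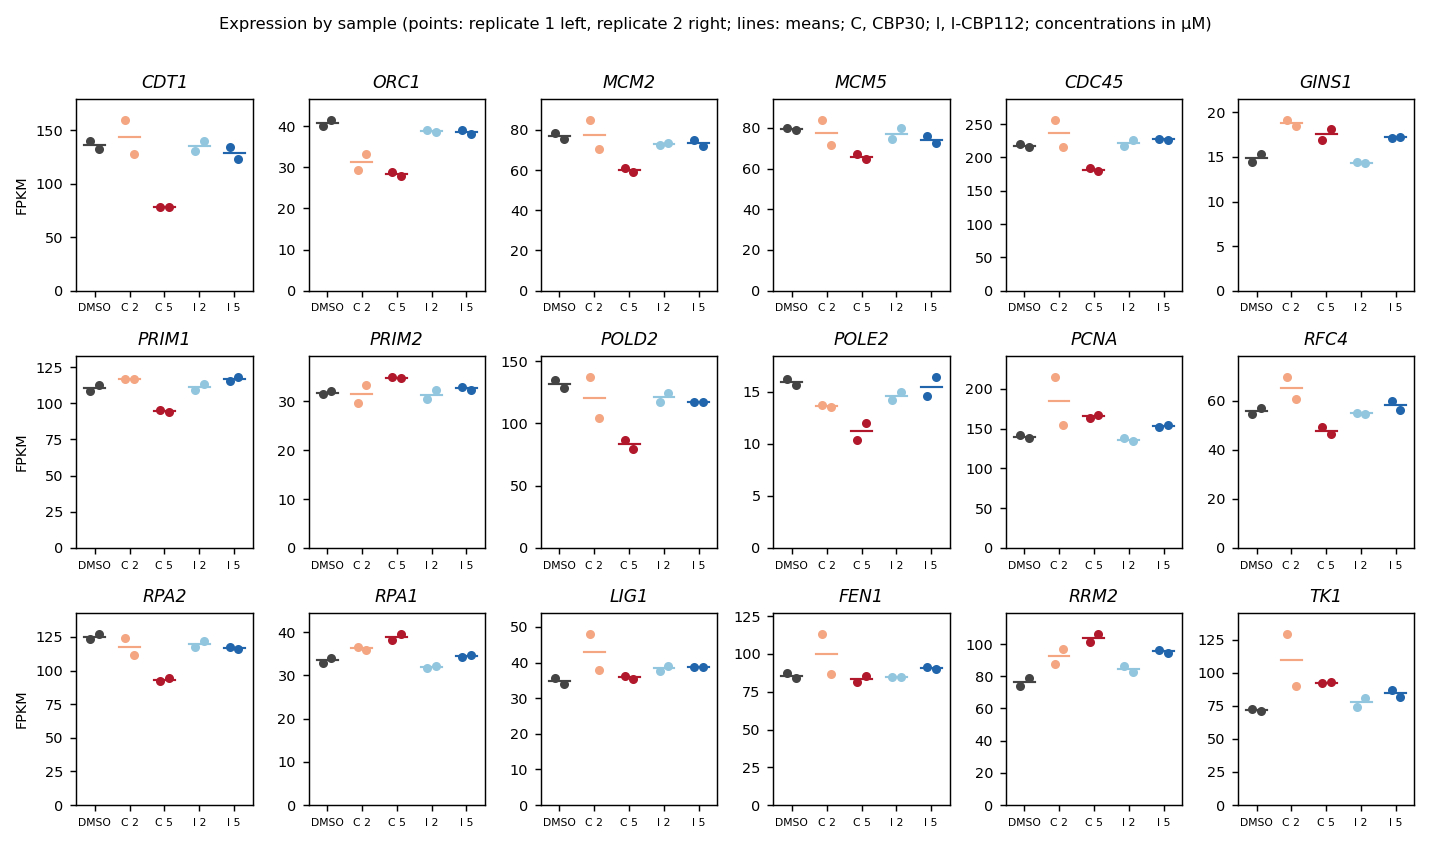
FPKM (y axis, from 0) of the 18 genes named first by role, in DMSO, CBP30 (C) and I-CBP112 (I) at 2 and 5 µM (x axis), with a point per replicate (replicate 1 left) and a line at the mean. CDT1, ORC1, POLD2, POLE2 and RPA2 are lowest at 5 µM CBP30, RRM2 is highest there, and the replicates of 2 µM CBP30 lie far apart for PCNA (215 and 155) and TK1 (129 and 90.2).

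Raising CBP30 from 2 to 5 µM lowered 11 members and raised 3 (backgrounds 21.3% and 17.6%), with a median log2 fold change of -0.139 beside -0.025 over all tested genes. The 11 lower at 5 µM were ORC3, CDT1, MCM2, MCM7, CDC45, PRIM1, POLE2, POLD2, RFC2, RFC4 and RPA2, and the 3 higher were POLE, RFC1 and RFC5. CDT1 differed most between the concentrations (-0.86 ± 0.10, adjusted p = 0.00252), then POLD2 (-0.52 ± 0.12, adjusted p = 0.0166) and RFC4 (-0.44 ± 0.07, adjusted p = 0.00686). ORC1 differed by -0.14 (95% interval -0.29 to 0.02), and RRM1 by -0.04 (95% interval -0.14 to 0.07), neither called. Without replicate 1 of 2 µM CBP30 the comparison called 12 lower and 1 higher, where 18.2% and 15.3% of all tested genes were called. POLE2, POLE and RFC5 were then no longer called, and ORC1 (-0.23 ± 0.04, adjusted p = 0.00954) and ORC2 (-0.15 ± 0.04, adjusted p = 0.0432) were called lower. POLD2 had -0.33 in that fit, in place of -0.52. With the length trend removed 9 were lower and 3 higher (21.3% and 20.6% of all genes). ORC3, PRIM1, POLE2, RFC2, RPA2, POLE and RFC1 then lost their calls, RPA2 going from -0.33 to -0.08. Without replicate 2 it called 23 lower and 9 higher (33.6% and 28.7% of all tested genes), the lone remaining sample then being the one whose deviations followed transcript length. Between 5 and 2 µM I-CBP112 limma called no member (backgrounds 0.00782% lower and 0.0547% higher). In that fit 4 members had an unadjusted p under 0.05, as did 774 of all 12788 tested genes.

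At matched concentrations CBP30 and I-CBP112 were compared directly over the 42 genes. At 5 µM, 11 members were lower with CBP30 than with I-CBP112 and 1 was higher (backgrounds 17.9% and 13.6%). CDT1 (-0.71 ± 0.10, adjusted p = 0.00297), POLD2 (-0.49 ± 0.12, adjusted p = 0.0198), POLE2 (-0.44 ± 0.08, adjusted p = 0.00699) and ORC1 (-0.43 ± 0.06, adjusted p = 0.00325) led the lower genes, followed by RPA2, CDC45, PRIM1, MCM2, RFC4, ORC3 and MCM7, and RPA1 was the higher one (0.17 ± 0.04). The calls of RPA1, PRIM1 and RFC4 were lost when the length trend was removed, which gave 9 lower and 7 higher (22.4% and 21.2% of all genes). For RRM2 the difference was 0.11 (95% interval -0.04 to 0.27), so the rise with CBP30 was not shown to exceed that with I-CBP112, nor to equal it. At 2 µM, ORC1 was lower with CBP30 (-0.30 ± 0.06, adjusted p = 0.026; background 8.45%) and GINS1, RPA1, RRM1 and TYMS were higher (background 7.13%), from 0.18 for RPA1 to 0.37 for GINS1. Without replicate 1 of 2 µM CBP30 these 5 genes kept their signs. The log2 fold changes were then -0.21 for ORC1, 0.34 for GINS1, 0.16 for RPA1, 0.30 for RRM1 and 0.17 for TYMS.

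Few I-CBP112 estimates passed the test, yet many members lay outside the DMSO pair. With 5 µM I-CBP112, both samples were below both DMSO samples for 11 members and above them for 24, where 33.7% of all tested genes lay below and 30.5% above. With 2 µM I-CBP112 the counts were 14 below and 11 above (28.3% and 25.0% of all tested genes). For CBP30 they were 17 below and 17 above at 5 µM (42.6% and 39.5% of all tested genes). At 2 µM CBP30 they were 9 and 17 (30.5% and 31.4%). With only 2 samples on each side, such an order is weak information about any single gene.

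The depositors' scaling mattered for the balance of lower and higher calls. Setting the FPKM of each sample to an equal sum moved the median of all genes by 0.127 at 5 µM CBP30 against DMSO and changed the all-gene calls from 54.4% lower to 36.7% lower. Under that scaling 6 members were called lower and 16 higher (17.2% and 29.6% of all tested genes), in place of 14 and 9. Under quantile normalization the counts were 9 and 15 (24.9% and 24.6%). All 14 lower and all 9 higher genes kept their sign under median centring, quantile normalization, equal sums and removal of the length trend. For the step from 2 to 5 µM, equal sums took the split of all calls from 54.7% to 22.0% lower. Members then numbered 4 lower and 12 higher (9.56% and 33.9% of all tested genes). For CBP30 against I-CBP112 at 5 µM, with a shift of 0.119, the split went from 56.8% to 35.1% lower. Members there numbered 5 lower and 5 higher (11.4% and 21.0%). In the comparison of 5 with 2 µM, where equal sums moved the median by 0.188, 10 of the 11 lower genes kept their sign under equal sums (ORC3 did not) and 10 under quantile normalization (MCM7 did not). At 5 µM CBP30, 6 of the 14 lower genes, ORC1, CDT1, MCM2, POLE2, POLD2 and RPA2, and 7 of the 9 higher genes, MCM3, GINS1, POLD3, RFC1, RFC5, RRM1 and RRM2, were called under each of 11 alternative ways of processing. At 2 µM CBP30 none of the 3 lower and none of the 9 higher calls was kept under all 11, since separate fits of the groups compared called none. ORC1, ORC6, GINS1, RRM1, TYMS and TK1 kept theirs under the other 10. Of these, ORC6 and TK1 lost their 2 µM calls when either DMSO replicate was left out, and ORC1, GINS1, RRM1 and TYMS did not. At 5 µM CBP30, ORC1, CDT1, POLE2, POLD2, RPA2, RRM1 and RRM2 were also called after any one of the 4 samples was left out. So was ORC3, lost under equal sums. The same held for PRIM1, lost under equal sums, quantile normalization and removal of the length trend with or without the replicate block. MCM2, GINS1 and RPA1 were not called without DMSO replicate 1 or without 5 µM CBP30 replicate 2. The calls of ORC2, MCM4, MCM5, MCM7, CDC45, RFC4, MCM3, POLD3, RFC1 and TYMS were lost whichever sample was left out, and that of RFC5 in 3 of 4 cases. The call of TYMS at 5 µM was also lost in 6 of the 11 alternatives. With any one of the 4 samples left out, smaller shares of all tested genes were called at 5 µM CBP30 than in the full fit.

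**Figure D3:**
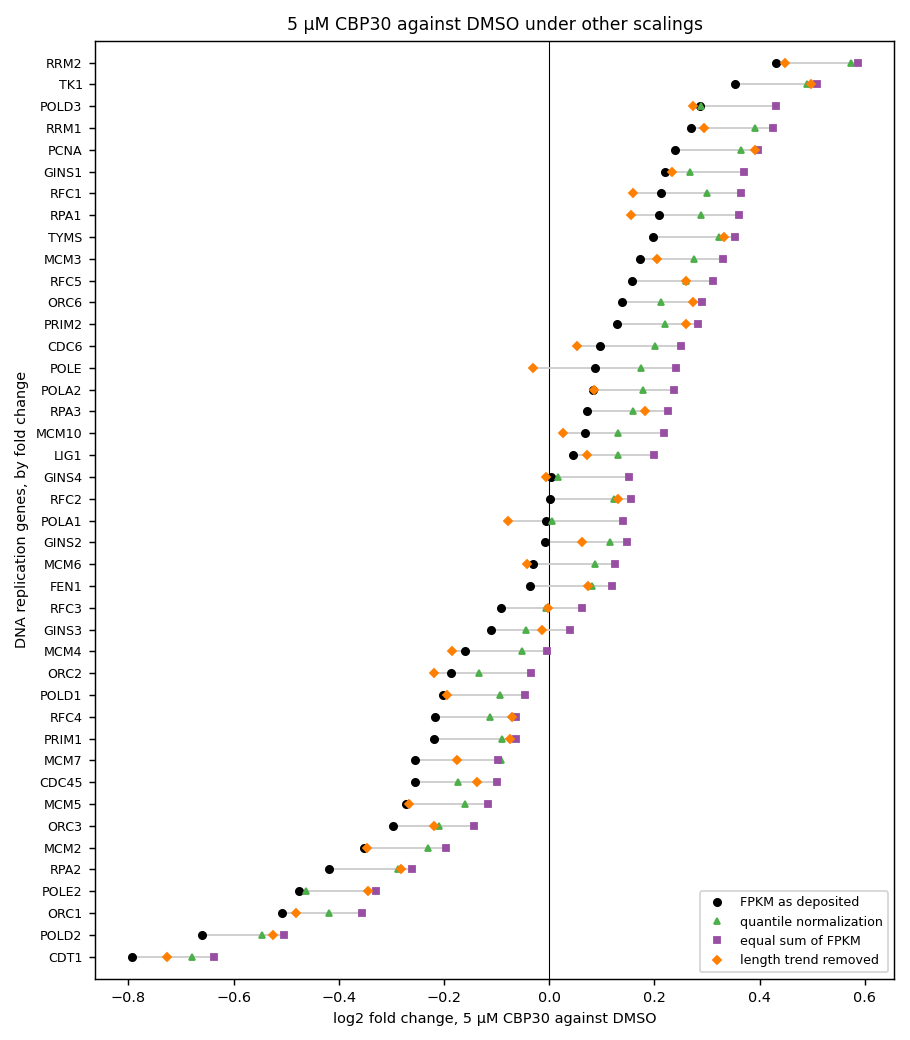
Log2 fold change of 5 µM CBP30 against DMSO (x axis) for each of the 42 genes (y axis, ordered by the estimate from the FPKM as deposited), with a symbol per scaling and a grey line joining them. Equal sums (squares) shift every gene upwards, and the genes at both ends, CDT1 at -0.79 and RRM2 at 0.43 as deposited, keep their sign under each scaling.

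The library that stood apart shifted the members by length. In the 2 µM CBP30 pair, replicate 1 divided by replicate 2 ran from 0.792 to 1.53 over the 42 genes with a median of 1.05, and 26 genes were above 1. The median absolute log2 difference between replicates was 0.186 there and between 0.028 and 0.052 in the other 4 groups. Across the 42 genes, the log2 ratio went with log transcript length at r = -0.610 (Spearman -0.588), a description over genes that share a library. With the length trend removed, 6 members were called lower and 15 higher at 2 µM CBP30 against DMSO, in place of 3 and 9. The shares of all genes called also rose, from 16.3% and 15.9% to 22.5% and 22.5%. Leaving out replicate 1 gave 5 lower and 12 higher (19.9% and 17.2% of all tested genes), with ORC1, ORC3 and MCM4 still lower, RRM1, RRM2, TYMS, TK1, GINS1, MCM3, ORC6 and RFC2 still higher, and POLA2 no longer called. The calls gained were POLD2 (-0.33, adjusted p = 0.0101) and RPA2 (-0.17, adjusted p = 0.0186) lower, and PCNA, POLD3, RFC1 and RPA3 higher. POLD2 and RPA2 were also called lower at 2 µM with the length trend removed. Without replicate 1, TK1 had 0.32 in place of 0.58, and RRM2 0.34 in place of 0.27. Leaving out replicate 2 gave 8 and 21 (28.1% and 28.6% of all tested genes). At 5 µM CBP30, where both replicates had length coefficients of 0.347 and 0.343, removing the trend gave 12 lower and 14 higher (29.9% and 29.3% of all genes).

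**Figure D4:**
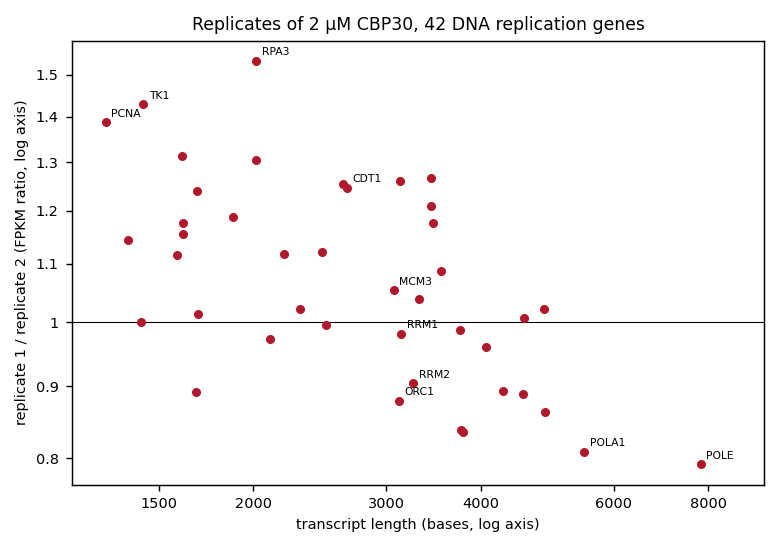
Ratio of replicate 1 to replicate 2 of 2 µM CBP30 in FPKM (y axis, log) against transcript length in bases (x axis, log), with a point per gene. Ratios run from 1.53 for RPA3 among the shorter transcripts to 0.792 for POLE, the longest at 7823 bases.

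The wider pathway was read from 50 further genes, of which 10 were called lower and 12 higher at 5 µM CBP30. The backgrounds there were 25.4% and 21.2%, which hold for each list below at 5 µM CBP30. For the 50 genes the counts were 3 and 9 at 2 µM CBP30 (backgrounds 16.3% and 15.9%). They were 1 and 1 at 5 µM I-CBP112 (3.28% and 3.84%) and 1 and 0 at 2 µM I-CBP112 (0.735% and 0.868%). The median of the 50 genes at 5 µM CBP30 was 0.08, beside -0.010 over all tested genes. Of 14 genes of origin firing and licensing control, 2 fell and 2 rose at 5 µM CBP30, with the origin-firing kinase CDC7 (0.45 ± 0.06, adjusted p = 0.000808) and the MCM-binding protein MCMBP (0.40) higher and DBF4B, an activator of CDC7, lower (-0.26). Geminin (GMNN), the inhibitor of CDT1, had 0.22 ± 0.09 and was not called there (adjusted p = 0.0721). Of 17 fork and polymerase accessory genes, 3 fell and 5 rose. The checkpoint mediator CLSPN, at 15.6 and 16.5 FPKM against 10.5 and 10.7 in DMSO (0.56 ± 0.11, adjusted p = 0.00495), the fork protection factor TIMELESS (0.44) and the topoisomerase TOP1 (0.44) rose, while TIPIN, the partner of TIMELESS, fell (-0.43 ± 0.06, adjusted p = 0.00136).

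Of 9 genes of replication-coupled chromatin, 3 fell and 2 rose at 5 µM CBP30. The hemimethylated DNA reader UHRF1 rose by 0.54 ± 0.06 (adjusted p = 0.000298), and the histone chaperone paralogs moved apart, ASF1B up (0.52) and ASF1A down (-0.24). ASF1A was at 22.1 and 23.3 FPKM in DMSO, 18.3 and 18.6 under CBP30 at 2 µM, 19.0 and 19.0 under CBP30 at 5 µM, 17.2 and 18.6 under I-CBP112 at 2 µM and 18.8 and 17.8 under I-CBP112 at 5 µM, and it was the one further pathway gene called lower in all 4 treatments. Of 10 further genes of nucleotide supply, 2 fell and 3 rose. SAMHD1, which degrades deoxynucleotides, was at 16.9 and 15.7 FPKM against 10.0 and 9.72 in DMSO (0.67 ± 0.09, adjusted p = 0.0011). RRM2B, the p53-regulated small subunit of ribonucleotide reductase (0.44), and the salvage kinase DCK (0.34) also rose, whereas CMPK1, a nucleoside monophosphate kinase, fell (-0.21).

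The E2F and pocket protein network, measured through 18 genes, had 6 lower and 4 higher at 5 µM CBP30 (backgrounds 25.4% and 21.2%). The G1/S cyclin CCNE2 was at 7.37 and 7.61 FPKM in DMSO, 10.6 and 12.4 under CBP30 at 2 µM, 14.2 and 14.1 under CBP30 at 5 µM, 8.17 and 8.14 under I-CBP112 at 2 µM and 10.3 and 10.0 under I-CBP112 at 5 µM. It rose with 5 µM CBP30 (0.83 ± 0.07, adjusted p = 0.000131), 2 µM CBP30 (0.56 ± 0.07, adjusted p = 0.00175) and 5 µM I-CBP112 (0.39 ± 0.07, adjusted p = 0.0212). E2F7, a repressor of the family, rose at 5 µM CBP30 (0.73 ± 0.14, adjusted p = 0.00521), and E2F5, which works with pocket proteins, fell (-0.59 ± 0.06, adjusted p = 0.000276). RB1 and CDK2 were also called higher (0.49 and 0.25), and E2F4, TFDP1, TFDP2, CCNA2 and CDC25A lower, from -0.43 for E2F4 to -0.17 for CCNA2. E2F1 was called higher at 2 µM (0.44 ± 0.11, adjusted p = 0.0236) and had 0.26 ± 0.11 at 5 µM (adjusted p = 0.0978). With 2 µM I-CBP112 none of the 18 was called (backgrounds 0.735% and 0.868%). Of them 1 had an unadjusted p under 0.05 in limma, as did 1761 of all 12788 tested genes.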

How the data were processed

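Poly(A)+ RNA of 10 K562 samples, 2 biological replicates in each of 5 groups treated for 48 h, was sequenced as 50-base single reads from stranded libraries. The submitters' processing notes name FastQC, TopHat2 2.0.10, Bowtie 1.0.0, SAMtools 0.1.19, Cufflinks 2.2.1 and Cuffnorm, and the build GRCh37 (hg19). The authors deposited one table of normalized FPKM, with no counts, so depth and counting error are unknown. Samples were grouped by the treatment given in the labels.

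From these values log2(FPKM + 1) was computed, genes averaging 0.5 FPKM or more were kept (12788 of 23284, with 3976 at 0 throughout), and all 10 samples were fitted together with limma 3.58.1 in R 4.3.3 (empirical Bayes with a trend, 5 residual degrees of freedom), with Benjamini-Hochberg adjustment over all tested genes. The limma fit was tested on simulated data. Lengths, positions and overlaps came from GENCODE v44lift37, promoter windows from RefSeq. The members and the gene lists were chosen with earlier results of these data known. A gene of the wider lists stays in their counts and is not reported here. Values by sample are given for the 2 members of each role with the largest change at 5 µM CBP30 and for the 3 most changed called genes of each other list. MCM3, RRM1, TYMS, TIPIN, GMNN and the other genes named beyond that rule were added after their values were seen.

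Each result was recomputed with another pseudocount (0.1), without the filter or with a stricter one (5 FPKM), after median centring, quantile normalization or scaling to equal sums, without the variance trend, in separate fits of the groups in question, with replicate number as a block, after removing a length trend (lowess span 0.3), and with each replicate left out. Same-numbered replicates did not deviate together (correlations from -0.0681 to 0.0939), so the numbers were not treated as pairs.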

Additional observations from a re-analysis of the deposited data

How the results depend on the processing

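Of the calls among the replication genes, 2 changed sign under an alternative, both at 5 against 2 µM CBP30 and neither called there: ORC3 under equal sums (-0.14 to 0.09) and MCM7 under quantile normalization (-0.26 to 0.01). Equal sums of FPKM left 6 members lower and 16 higher at 5 µM CBP30 against DMSO (17.2% and 29.6% of all tested genes). They gave 4 and 12 at 5 against 2 µM CBP30 (9.56% and 33.9%). For CBP30 against I-CBP112 they gave 5 and 5 at 5 µM (11.4% and 21.0%), and 0 lower at 2 µM (8.2%). Quantile normalization gave 9 and 15 at 5 µM CBP30 (24.9% and 24.6%). It gave 8 higher at 5 against 2 µM (19.9%) and 2 higher between the compounds at 5 µM (17.5%). Removing the length trend gave 14 higher at 5 µM CBP30 (29.3% of all genes) and 6 and 15 at 2 µM (22.5% and 22.5%). It gave 4 higher at 5 µM I-CBP112 (8.7%). Between the compounds it gave 7 higher at 5 µM (21.2%) and 2 and 9 at 2 µM (14.6% and 14%). Separate fits of the groups compared gave 0 and 0 at 2 µM CBP30, where few genes of any kind were called (1.28% and 1.12%). They also gave 0 and 0 at 5 against 2 µM (0.0313% and 0.0156%) and between the compounds at 2 µM (0.0704% and 0.0391%). In these fits 8 were higher between the compounds at 5 µM (23.7%) and 3 at 5 µM I-CBP112 (6.29%). At 5 µM CBP30 against DMSO the separate fit called 16 lower and 13 higher (32.6% and 28.4%). The separate fits have fewer samples and fewer residual degrees of freedom, and they gave more calls in some comparisons and fewer in others. At 5 against 2 µM CBP30, the 3 higher members became 1 without the filter (10.2%) and 0 without the variance trend (17.2%). The cause of these shifts was not tested.

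The replicate block left 0 higher at 5 against 2 µM CBP30 (15.9% of all tested genes) and 2 higher between the compounds at 2 µM (4.84%). It left 14 and 8 at 5 µM CBP30 (24.5% and 20.4%). With the length trend removed as well, the block gave 6 and 14 at 2 µM CBP30 (22.4% and 22.5%) and 4 higher at 5 µM I-CBP112 (8.57%). Between the compounds the block then gave 7 higher at 5 µM (21.1%) and 3 and 7 at 2 µM (14.4% and 13.9%). It moved no other count by over 1.5 times, and the numbers share no stated pairing.

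Leaving out 1 replicate at a time gave 7 to 8 lower and 2 to 5 higher at 5 µM CBP30, 1 to 8 and 3 to 21 at 2 µM, 0 higher at 5 µM I-CBP112, 2 to 23 and 0 to 9 at 5 against 2 µM CBP30, 4 to 6 and 0 between the compounds at 5 µM, and 0 to 6 and 0 to 19 at 2 µM. The highest counts at 2 µM and at 5 against 2 µM came without replicate 2 of 2 µM CBP30. The shares of all tested genes called were also highest in those fits. In the other 5 µM comparisons, those with DMSO and that between the compounds, every such fit called smaller shares of all tested genes than the full fit. These changes in the counts therefore do not show that the replication genes were less stable than other genes. A lone sample is assumed to vary like the other groups. With 2 samples per group and no counts, differences of the size of many of these changes, near 0.2 on the log2 scale, sit close to the threshold.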
